A study of Mus musculus with 6 samples.

Results

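The mouse genes of cystine import and glutathione turnover were examined in C2C12 myotubes, the multinucleate cells that this mouse myoblast line forms on differentiation. Of 9 listed genes, 7 had a row of their own in the expression table, which had 16700 rows: Slc7a11, Chac1, Chac2, Gclc, Gss, Gsr and Cbs. Cth was read from the row it shares with Rpl32l, a ribosomal protein-like gene, which brought the number of members to 8. Gclm lay only on a row shared with Ppia, the cyclophilin A gene, and was therefore not counted.

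In the ATF4 group (3 samples) the myotubes carried adenovirus for eGFP, a green fluorescent protein, and for ATF4-FLAG, a tagged form of the stress-induced transcription factor. In the control group (3 samples) they carried adenovirus for eGFP and ATF4∆bZIP-FLAG, which lacks the DNA-binding bZIP domain and does not activate transcription. All myotubes thus carried virus, eGFP and a FLAG-tagged protein, were of a single cell line, and were harvested 48 h after infection. The comparison asks which of these transcripts differ when the viral ATF4 can act on genes. RNA was measured on Affymetrix mouse exon arrays, 1 per sample, and all values below are levels or differences on the log2 scale. The arrays with sample number 3 had narrower distributions, with interquartile ranges of 1.80 (ATF4) and 1.63 (control), against 2.19 to 2.28 on the other arrays.

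Cells build glutathione, their main soluble thiol, from glutamate, cysteine and glycine. Cysteine enters as its oxidised dimer cystine through an exchanger made of Slc7a11 and Slc3a2, or is made from homocysteine by the transsulfuration enzymes Cbs and Cth. Glutamate-cysteine ligase, made of the catalytic subunit Gclc and the modifier subunit Gclm, and then glutathione synthetase, Gss, join the amino acids. Gsr returns oxidised glutathione to its reduced form with NADPH, and the gamma-glutamylcyclotransferases Chac1 and Chac2 degrade glutathione. ATF4 is known to bind composite C/EBP-ATF sites in genes of amino acid supply, whereas the factor NRF2 acts on many glutathione genes through antioxidant response elements.

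Both kinds of site were looked for in the promoter windows that RefSeq gives for build GRCm38.p6, each reaching from 250 bases before the transcript start to 50 after it. Windows were at hand for 6 of the 9 listed genes and for Slc3a2; those of Gclc, Gsr and Cth were not used here. The 3 windows below show the members with a match to the C/EBP-ATF motif TTNCATCA, and the paralogue Chac2 beside Chac1, each 5′ to 3′ on the strand of the gene. Capitals mark the matches, searched on both strands.
Slc7a11: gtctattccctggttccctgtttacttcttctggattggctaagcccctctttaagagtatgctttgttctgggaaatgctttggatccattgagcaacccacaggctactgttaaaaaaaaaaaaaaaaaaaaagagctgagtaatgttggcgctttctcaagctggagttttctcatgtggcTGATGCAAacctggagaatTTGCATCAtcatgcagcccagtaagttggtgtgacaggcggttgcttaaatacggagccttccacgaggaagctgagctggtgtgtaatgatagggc
Chac1: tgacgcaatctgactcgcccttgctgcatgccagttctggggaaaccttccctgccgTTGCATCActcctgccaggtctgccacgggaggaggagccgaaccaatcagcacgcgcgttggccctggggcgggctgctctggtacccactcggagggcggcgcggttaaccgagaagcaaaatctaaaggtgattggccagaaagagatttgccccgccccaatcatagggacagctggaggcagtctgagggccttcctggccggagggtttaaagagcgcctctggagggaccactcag
Chac2: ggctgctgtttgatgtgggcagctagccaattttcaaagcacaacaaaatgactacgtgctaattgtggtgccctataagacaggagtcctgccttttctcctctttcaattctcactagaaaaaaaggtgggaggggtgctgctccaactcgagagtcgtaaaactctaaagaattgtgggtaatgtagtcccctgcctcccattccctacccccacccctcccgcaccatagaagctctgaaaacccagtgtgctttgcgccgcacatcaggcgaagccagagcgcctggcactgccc
They lie at chr3:50443564-50443863 (minus strand), chr2:119350992-119351291 (plus strand) and chr11:30986316-30986615 (minus strand).

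Slc7a11 had 2 matches in opposite orientation, TGATGCAA starting 66 bases and TTGCATCA starting 47 bases before the transcript start. Chac1 had 1 match, TTGCATCA, starting 193 bases before the start. Of all 32851 promoter windows, 3.97% held at least 1 match and 0.07% held 2 or more. The windows of Chac2, Gss, Cbs, Gclm and Slc3a2 held none. The antioxidant response element core TGACNNNGC, which 12.4% of all windows held, was matched in that of Gclm alone among these 7 windows, and no match of the 2 motifs overlapped. A match describes the letters of a window and not binding in these cells.

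**Figure D1:**
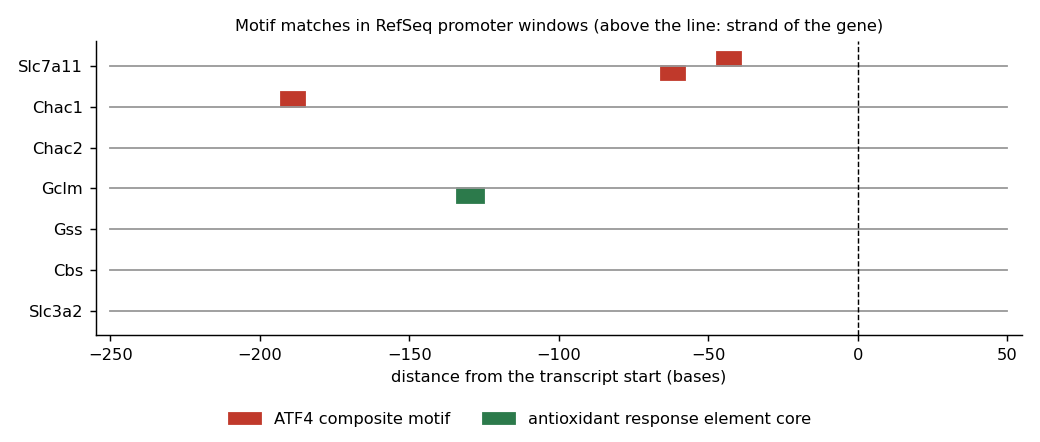
Position of each motif match (boxes) in the promoter windows of 6 listed genes and Slc3a2; the x axis is the distance in bases from the transcript start (dashed line), and boxes above a line read on the strand of the gene, those below it on the opposite strand. Slc7a11 has 2 matches to the ATF4 composite motif, Chac1 has 1 and Gclm has 1 match to the antioxidant response element core.

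Slc7a11, which brings in cystine, Chac1, which degrades glutathione, and the row shared by Cth and Rpl32l were higher in ATF4 myotubes. By the limma test over all rows (adjusted p below 0.05), 3 of the 8 members rose, 0 fell and 5 did not pass. Among the 7 members with a row of their own, 2 rose. Of all rows, 0.569% rose and 0.024% fell by the same test, and 0.593% passed in either direction. At an unadjusted p below 0.05 the members' counts were the same, 3 higher and 0 lower, against 3.1% of all rows higher and 2.16% lower, 5.26% in all. When sample number was fitted as a block, the same 3 members passed, while 2.4% of all rows rose, 1.16% fell and 3.56% passed in either direction. The groups did not overlap for these 3 members alone, all higher in ATF4 arrays, against 9.12% of all rows in either direction and 4.5% of all rows higher in ATF4 arrays. Without both number 3 arrays the differences of Slc7a11, Chac1 and the Cth row were 3.52, 1.84 and 3.61, and all passed (limma adjusted p = 0.00608, 0.0231 and 0.00442). The median difference was 0.21 over the 8 members, 0.19 over those with a row of their own and -0.03 over all rows.

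**Figure D2:**
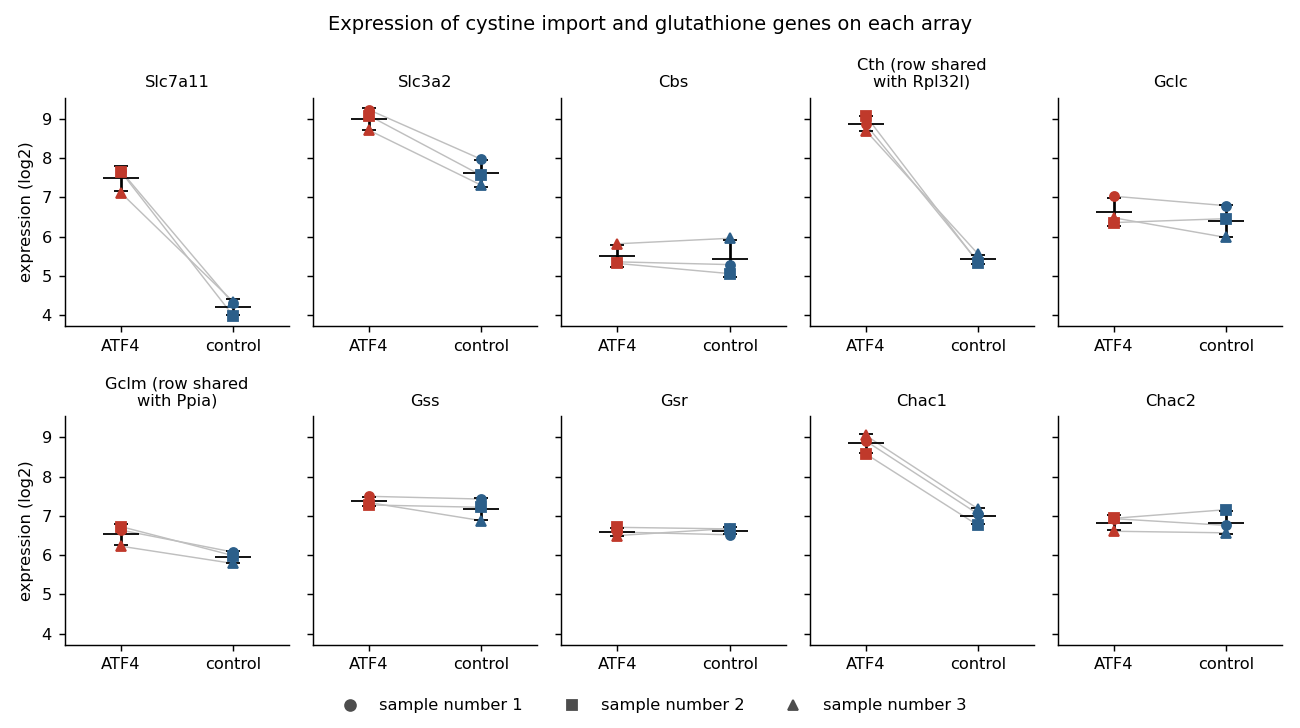
Log2 expression (y axis) on each array for the 8 members, the row of Gclm and Ppia, and Slc3a2, with ATF4 arrays in red and control arrays in blue, bars for the mean ± SD (n = 3 per group) and grey lines joining arrays of the same sample number. Slc7a11, Slc3a2, Chac1 and the Cth row stand apart between groups, and the row of Gclm and Ppia does so by a smaller gap.

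In cystine import, Slc7a11 (transcript cluster 6904892), the chain that carries cystine in and glutamate out, had 7.68, 7.66 and 7.12 in ATF4 arrays 1 to 3, against 4.30, 3.99 and 4.35 in control arrays 1 to 3. Every ATF4 array was far above every control array. The difference was 3.27 (standard error 0.21, 95% interval 2.80 to 3.74), a fold of 9.67 (limma adjusted p = 1e-04), and it was the fifth largest rise of the 16700 rows. Within the same sample number it was 3.38, 3.67 and 2.77. Slc7a11 lay between the 79.9th and 84.6th percentile of rows on ATF4 arrays and between the 9.8th and 15.9th on control arrays. No detection calls were used, so a control level this low may lie near background, where a fold can be understated.

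Slc3a2 (transcript cluster 6871361), the heavy chain that carries Slc7a11 and several other amino acid transporters to the cell surface, had 9.23, 9.08 and 8.71 in ATF4 arrays and 7.97, 7.56 and 7.31 in control arrays. The groups did not overlap, and the gene rose 2.62-fold, by 1.39 (standard error 0.22; limma adjusted p = 0.0223). This call ended without ATF4 array 1 (limma adjusted p = 0.157), without ATF4 array 2 (0.0972) and with each array centred on its median (0.123). The rise of Slc7a11 exceeded that of Slc3a2 by 1.88 within arrays. In an exact two-sided permutation test over the arrays this gave p = 0.1, the smallest that 3 against 3 arrays allow, and 0.1 after Benjamini-Hochberg adjustment over the 3 such pairs compared.

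In transsulfuration, the row shared by Cth and Rpl32l (transcript cluster 6910938) had the largest difference among the members. It read 8.86, 9.08 and 8.70 in ATF4 arrays and 5.36, 5.34 and 5.56 in control arrays, with a wide gap between the groups. The difference was 3.46 (standard error 0.18, 95% interval 3.05 to 3.86), a fold of 11.0 (limma adjusted p = 3.92e-05), and within sample numbers it was 3.49, 3.73 and 3.14. Cth encodes cystathionine gamma-lyase, which releases cysteine from cystathionine, but the row cannot be assigned to Cth rather than Rpl32l.

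Cbs (transcript cluster 6854826), cystathionine beta-synthase and the step before Cth, had 5.36, 5.32 and 5.82 in ATF4 arrays and 5.29, 5.06 and 5.96 in control arrays. Array 3 was the highest in both groups and the groups overlapped. The difference was 0.06 (95% interval -0.50 to 0.63; limma adjusted p = 1), so a change of up to about 1.55-fold lies within the interval. The Cth row exceeded Cbs in its difference by 3.39 within arrays (exact permutation p = 0.1, the smallest possible).

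In glutathione synthesis, Gclc (transcript cluster 6990664), the catalytic subunit of the rate-limiting ligase, had 7.03, 6.36 and 6.48 in ATF4 arrays and 6.79, 6.46 and 5.98 in control arrays. The groups overlapped, and the difference of 0.22 (95% interval -0.35 to 0.78) did not pass (limma adjusted p = 1). Within sample numbers it was 0.24, -0.09 and 0.50, so the sign was not the same in each pair.

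Gss (transcript cluster 6892376), which adds glycine in the last step, had 7.50, 7.28 and 7.34 in ATF4 arrays and 7.43, 7.22 and 6.88 in control arrays. The groups overlapped and the difference was 0.19 (95% interval -0.24 to 0.63; limma adjusted p = 1). Control array 3 was the lowest of the 6, and the differences within sample numbers were 0.07, 0.05 and 0.46. The row shared by Gclm and Ppia (transcript cluster 6900990) had 6.64, 6.73 and 6.23 in ATF4 arrays and 6.08, 5.99 and 5.79 in control arrays, without overlap. Its difference of 0.58 did not pass without the block (limma adjusted p = 0.487) and passed with it (0.0354). The row also passed with array weights and no block (0.0351), while 14 of 16 alternatives left it uncalled. It cannot be assigned to Gclm, the modifier subunit that lowers the ligase's need for glutamate, and no comparison of Gclm with Gclc was made.

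In recycling, Gsr (transcript cluster 6975235), glutathione reductase, had 6.59, 6.71 and 6.50 in ATF4 arrays and 6.52, 6.67 and 6.68 in control arrays. The 6 levels lay close together, with SDs of 0.10 and 0.09 (n = 3 each). The difference was -0.02 (95% interval -0.40 to 0.35; limma adjusted p = 1), which leaves room for a fold between 0.757 and 1.28.

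In glutathione breakdown, Chac1 (transcript cluster 6880516), the stress-induced enzyme that cleaves glutathione to 5-oxoproline and cysteinyl-glycine, had 8.91, 8.58 and 9.05 in ATF4 arrays and 7.05, 6.76 and 7.18 in control arrays. The groups did not overlap, and array 2 was the lowest and array 3 the highest in both. Chac1 rose by 1.85 (standard error 0.20, 95% interval 1.41 to 2.30), 3.61-fold (limma adjusted p = 0.00201). Within the same sample number the difference was 1.86, 1.82 and 1.87, a spread far smaller than that between arrays of a group. Its call ended when arrays were scaled to the same median and interquartile range (difference 1.84, limma adjusted p = 0.0544).

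Chac2 (transcript cluster 6787020), the paralogue with the same reaction and, in work on the purified enzymes, a slower turnover, had 6.93, 6.94 and 6.61 in ATF4 arrays and 6.76, 7.16 and 6.57 in control arrays. The groups overlapped and the difference was -0.01 (95% interval -0.47 to 0.45; limma adjusted p = 1), with 0.17, -0.23 and 0.03 within sample numbers. Chac1 minus Chac2 was 1.98, 1.65 and 2.45 within ATF4 arrays and 0.29, -0.40 and 0.60 within control arrays. The paralogues' differences thus stood 1.86 apart, with no overlap of the arrays (exact permutation p = 0.1, the smallest possible).

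**Figure D3:**
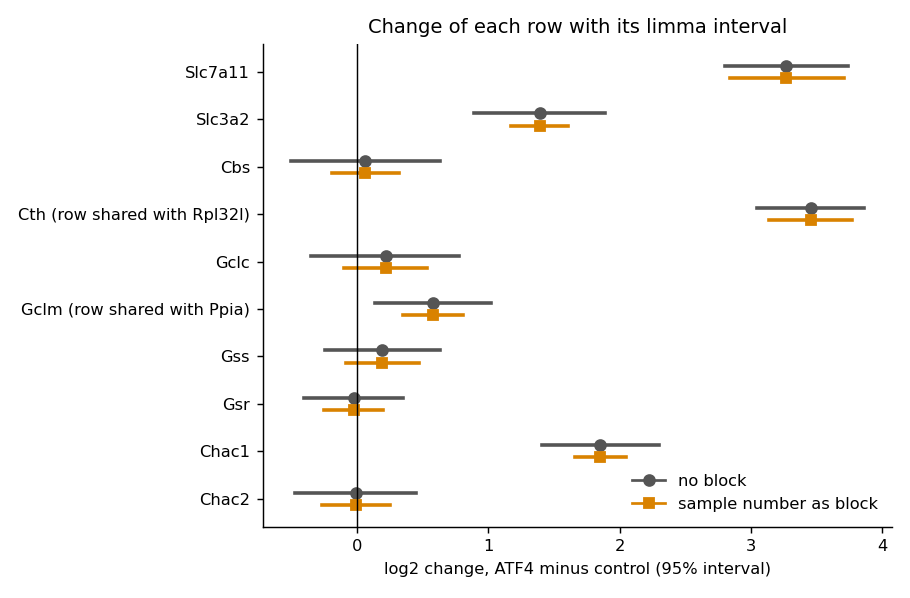
Difference in log2 level, ATF4 minus control (x axis), with its 95% limma interval for each row, without a block (grey) and with the sample number as a block (orange). The intervals of Slc7a11, Slc3a2, Chac1 and the rows of Cth and of Gclm exclude 0 in both fits, and those of Cbs, Gclc, Gss, Gsr and Chac2 include it; intervals are not adjusted for the number of rows.

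Some rows outside the members followed nearly the same course as Slc7a11 over the 6 arrays. Likeness was the root mean square difference between profiles, each centred on its own mean. The Cth row was the closest of all rows, at 0.172. Among rows with 1 gene symbol outside the members the 5 closest were Saa3, a serum amyloid A protein, at 0.279, Serpinb6c, a serine protease inhibitor, at 0.339, P2rx3, an ATP-gated ion channel, at 0.359, Dhrs9, a short-chain dehydrogenase, at 0.425 and Aldh1l2, a mitochondrial folate enzyme, at 0.46. Their differences were 3.74, 3.01, 2.81, 2.50 and 2.44, against 3.27 for Slc7a11. These profiles share the 6 arrays and the group difference that dominates each of them.

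The steps around the members were covered by 6 gene lists with 92 genes measured on a row of their own, of 115 listed. By the same limma test 2 of the 92 rose and 0 fell, 2.17% of them against 0.593% of all rows, with a median difference of -0.02 against -0.03 over all rows. At an unadjusted p below 0.05, 6 were higher and 2 lower, 8.70% of the 92 against 5.26% of all rows. When sample number was blocked, 6 rose (6.52%, against 2.4% of all rows) and 2 fell (2.17%, against 1.16%).

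Cystine and related amino acid carriers held both genes that rose without the block. Of 9 listed genes 8 were measured, 2 rose, 0 fell and 6 did not pass, with a median difference of 0.32. Besides Slc3a2, Slc1a5, a sodium-dependent carrier of glutamine and other neutral amino acids, had 7.03, 6.73 and 6.70 in ATF4 arrays and 5.43, 5.67 and 5.76 in control arrays. The groups did not overlap, and it rose 2.29-fold (limma adjusted p = 0.0176). This call ended without ATF4 array 1 (limma adjusted p = 0.151), ATF4 array 2 (0.0683) or control array 1 (0.114). Slc1a4, a carrier of alanine, serine, cysteine and threonine, had 6.85 ± 0.22 in ATF4 arrays and 6.03 ± 0.16 in control arrays (SD, n = 3 each). It did not pass unblocked (limma adjusted p = 0.125) but passed with the block (0.0103) and with array weights and no block (0.00813). Slc3a1, Slc7a9 and Ctns, on the same list, did not pass in either fit, with differences of 0.09, -0.01 and 0.27.

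In the methionine cycle and cysteine breakdown, 0 of 15 measured genes (22 listed) passed by limma. At an unadjusted p below 0.05, 1 was higher (6.67%, against 5.26% of all rows in either direction). This was Got1, the cytosolic aspartate aminotransferase, which also converts cysteine sulfinate, with 9.10, 9.17 and 8.72 in ATF4 arrays and 8.71, 8.59 and 7.88 in control arrays (limma adjusted p = 0.77 unblocked and 0.0475 blocked). The list's median difference was -0.01.

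Of the glutathione-using enzymes, 0 of 29 measured genes (35 listed) passed by limma, with a median difference of -0.12. At an unadjusted p below 0.05, 1 was higher and 2 lower, 10.3% of the 29 against 5.26% of all rows. Hagh, the hydrolase that frees glutathione at the end of methylglyoxal detoxification, had 7.51, 7.93 and 7.39 in ATF4 arrays and 7.07, 7.38 and 6.55 in control arrays (limma adjusted p = 0.758 unblocked and 0.0439 blocked). Gsta4, a glutathione transferase that acts on lipid peroxidation products, had 7.98 ± 0.39 in ATF4 arrays and 8.71 ± 0.53 in control arrays (SD, n = 3 each). It did not pass unblocked (limma adjusted p = 0.729) but passed with the block (0.0232) and with array weights and no block (0.0338).

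Among genes of glutathione breakdown and export, 0 of 13 measured (16 listed) passed by limma. At an unadjusted p below 0.05, 1 was higher (7.69%, against 5.26% of all rows in either direction). Slc25a40, a mitochondrial carrier whose close relative Slc25a39 takes up glutathione, came nearest. It had 7.45, 7.40 and 7.27 in ATF4 arrays and 6.50, 6.55 and 6.06 in control arrays, without overlap. Its difference was 1.00 (limma adjusted p = 0.0561 unblocked and 0.0102 blocked), and it passed without control array 3 (0.0367). With any of the other 5 arrays left out it did not pass (0.0632 to 0.335), nor with each array centred on its median (0.196). It did pass with cyclic loess (0.0183), array weights (0.00149) and an intensity trend in eBayes (0.0443). The same held with rows below the 25th percentile left out (0.0478) and without both number 3 arrays (0.0463). Of 16 alternatives, 9 left Slc25a40 uncalled. Ggct, a gamma-glutamylcyclotransferase that acts on gamma-glutamyl amino acids made from glutathione, had 7.63, 8.18 and 6.59 in ATF4 arrays and 8.23, 8.59 and 7.23 in control arrays. The groups overlapped, while each ATF4 array was lower than the control array of its number, with differences of -0.60, -0.42 and -0.64 (limma adjusted p = 1 unblocked and 0.0354 blocked).

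The thioredoxin and glutaredoxin genes (18 of 21 measured) and the genes of NADPH supply (9 of 12 measured) had 0 members past the limma test with or without the block, and 0 at an unadjusted p below 0.05 without it. Their medians were -0.08 and 0.06. The smallest p-values in the first list were those of Prdx2, a peroxiredoxin, with a difference of -0.33, and of the methionine sulfoxide reductase Msrb1, with -0.34. In the second they were those of Pgd, 6-phosphogluconate dehydrogenase, with 0.38, and of the mitochondrial malic enzyme Me3, with 0.37 (limma adjusted p = 1 for each of the 4).

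**Figure D4:**
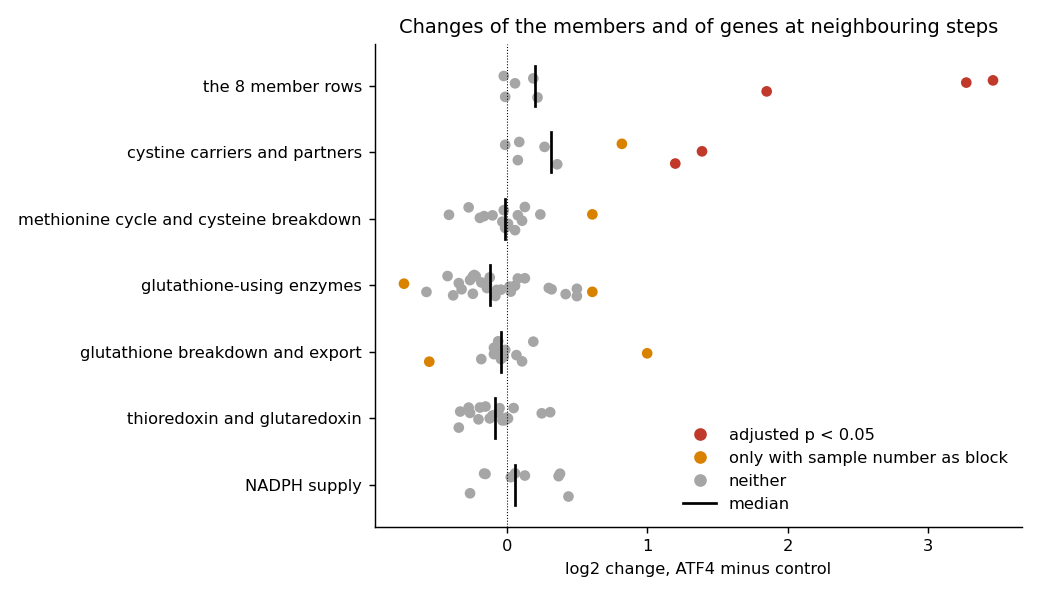
Difference in log2 level, ATF4 minus control (x axis), for the 8 member rows and for 92 genes of 6 lists of neighbouring steps; each point is a row, black bars are medians, red points passed the limma test, orange points passed only with the sample number as a block and grey points passed neither. The 3 red member points lie at 1.85, 3.27 and 3.46, and the 2 red points of the carriers at 1.20 and 1.39.

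As a check of the label, 8 of 12 listed myotube markers had a row of their own, and each lay above the array median on every array. Of the 6 markers of proliferating or undifferentiated myoblasts 5 had a row of their own, and 4 of these also lay above the median, Mki67 between the 90.7th and 95.8th percentile. The markers thus do not show the samples to be myotubes alone, and the share of each cell type was not measured. All 13 markers had a lower mean in ATF4 arrays, by differences of -0.48 to -0.02, with a median of -0.28 for myotube and -0.33 for myoblast markers, against -0.03 over all rows. By limma 0 of the 13 passed. At an unadjusted p below 0.05, 1 of the 13 was lower in ATF4 arrays (Cdk1), against 2.16% of all rows. Under the block 1 of the 13 fell (Tnnc2), against 1.16% of all rows. The mean level of the myotube markers was 8.91 to 9.44 in ATF4 arrays and 9.07 to 9.68 in control arrays. That of the myoblast markers was 6.91 to 7.12 in ATF4 arrays and 7.26 to 7.39 in control arrays. Whether these levels have a part in the members' differences was not tested, and fewer cells of a type cannot be told apart from less RNA per cell.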

How the data were processed

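Total RNA was amplified with NuGEN kits and biotin-labelled, per the labels' protocols. GCOS and RMA, with build mm9, are named in the submitters' processing notes. No version, setting or filter is stated there. The deposited arrays did not share the same distribution, with medians of 5.76 to 6 and interquartile ranges of 1.63 to 2.28. The deposited values were taken to be log2, inferred from their range. Rows were named from the platform annotation (14988 with 1 symbol, 1018 with several, 694 with none). Groups and sample numbers came from the titles, which do not say that samples were separate cultures. The p-values therefore reflect only how these samples vary, and that variation may be technical.

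All 16700 rows were fitted with limma 3.58.1 in R 4.3.3 (lmFit, eBayes, two-sided, Benjamini-Hochberg over all rows, threshold 0.05, no filter). Residual degrees of freedom were 4, and 2 with the sample number as a block. Arrays of the same number deviated together from their group means (r = 0.578, 0.636 and 0.782 over rows, each above the limit of 0.1). ATF4 array 1 with control array 2 (0.221) and ATF4 array 2 with control array 1 (0.168) also passed this limit. The other pairs of unlike number had r of -0.666 to -0.499. Whether the narrower distributions of the number 3 arrays have a part in r was not tested. The titles do not say what a sample number marks, so the fit without the block was the main one. Sample number was also fitted as a block, and the blocked value is given where it changed a call. The fits were also run on simulated data with known changes. The number 3 arrays were not narrower in that simulation, and no result here rests on it. The members, lists, motifs and tests were chosen with earlier results of these data known. Named were all members, Slc3a2, in each list the genes past the threshold in either fit or else the 2 with the smallest p, and the 5 rows most like Slc7a11. A list gene with several rows was represented by the brightest. The planned comparison of Gclm with Gclc was dropped, since Gclm had no row of its own. Alternatives were the block, quantile normalization, median centring, scaling to the same median and interquartile range, cyclic loess, leaving out rows below the 25th percentile, array weights, eBayes with an intensity trend or made robust, a threshold of 0.01, and leaving out each array or both number 3 arrays.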

Additional observations from a re-analysis of the deposited data

How the results depend on the processing

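Slc7a11 and the Cth row passed under all 16 alternatives tried, with differences of 3.16 to 3.52 and 3.36 to 3.61. Chac1 passed under all but scaling to the same median and interquartile range. The count of members called was 3, or 2 with that scaling, in each of 17 settings. The 3 differences between related genes kept their sign in all 12 settings run, where p could not fall below 0.1. The number of rows called over the whole table was 99, and moved to 594 with the replicate block, 57 with median centring, 151 with cyclic loess, 561 with array weights, 157 without both number 3 arrays and 41 at an adjusted p below 0.01. It was 38 to 243 with 1 array left out. The number of neighbouring genes called by limma was 2, and moved to 8 with the block, 1 with median centring, 7 with array weights and 0 at an adjusted p below 0.01, where 8 had an unadjusted p below 0.05. With 1 array left out it was 0 to 3, and 0 without ATF4 array 1 or 2, where 6 and 7 had an unadjusted p below 0.05.

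Members with differences near 0 changed sign. Chac2 had 0.0344 with median centring, 0.0134 with scaling, 0.0195 with array weights and -0.138 to 0.157 with 1 array left out. Gsr had 0.0181 with median centring, 0.0451 with array weights, 0.0542 without both number 3 arrays and -0.0783 to 0.0262 with 1 array left out. Cbs had -0.123 to 0.325 with 1 array left out. None of these passed the limma test, the cause of the sign changes was not tested, and the replicate block changed no member's call. The small number of arrays limits the precision, and signal over background could not be judged without detection calls.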
